A study of Mus musculus with 6 samples.

Results

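The T helper 1 (Th1) programme of mouse splenic CD4+ T cells was followed through 10 of its genes in stimulated cells cultured with itaconate or with NaCl. They were chosen by name as 4 transcription factor genes (Tbx21, Eomes, Runx3 and Hlx), 3 cytokine genes (Ifng, Tnf and Lta) and 3 receptor genes (Il12rb1, Il12rb2 and Cxcr3). The choice was made with earlier results of these data known. All 10 were found among the 55291 distinct symbols of the table, and all 10 passed the filter on low values with 13180 tested entries. The cells came from the spleen of naive wild-type (WT) C57BL/6 mice, were stained with the division dye CFSE and were kept for 48 h in 5 mM itaconate (3 libraries) or in 5 mM NaCl (3 libraries). Both media also held IL-2 (200 U) and stimulating antibodies to CD3 and CD28. No cytokine that polarizes toward Th1 is named in the labels. They do not state that the libraries of a group are separate mice or cultures, and p-values then measure only the spread between these libraries, which may be technical. The control columns are coded NAC, taken to mean NaCl, the one control medium that the labels name.

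Th1 cells are the helper T cells that make interferon gamma and act against intracellular microbes. IL-12 binds a receptor of the chains IL-12R beta 1 and beta 2 and signals through the kinases TYK2 and JAK2 to STAT4, while interferon gamma signals through its own receptor. Both routes raise T-bet, the factor encoded by Tbx21, which opens the Ifng locus together with RUNX3 and HLX and induces the chemokine receptor CXCR3 and IL-12R beta 2. Eomesodermin, encoded by Eomes, is a T-box factor related to T-bet and is best known in CD8+ T cells and natural killer (NK) cells. Itaconate is a dicarboxylate that activated macrophages make from a TCA cycle intermediate.

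Of the 10 genes, 6 fell with itaconate, 1 rose and 3 did not pass the test (limma, Benjamini-Hochberg adjusted p under 0.05 over all tested genes). The fallen genes were Tbx21, Runx3, Tnf, Lta, Il12rb1 and Il12rb2, and the gene that rose was Eomes. Ifng, Hlx and Cxcr3 did not pass. Over all tested genes 36.0% passed in either direction, 17.8% lower and 18.2% higher with itaconate, so a changed gene was common in this comparison. The groups did not overlap for 7 of the 10 genes, against 48.4% of all tested genes. Because the 10 genes were chosen with earlier results known, these shares cannot test for an excess over all genes. The median log2 fold change was −0.66 over the 10 genes and −0.00088 over all tested genes.

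Regulatory sequence of 4 of these genes is shown because they frame the result: the pair of T-box genes that went opposite ways, and the receptor and cytokine genes Il12rb2 and Lta, which fell together with Tbx21. Each window is the 250 bases before the RefSeq start of the gene on GRCm38.p6, written 5′ to 3′ on the gene's strand, and credited to RefSeq. Capitals mark every match, on either strand, to any of 6 motifs searched: the T-box half-site GGTGTGA, the RUNX motif TGTGGT, the NFAT motif GGAAAA, the AP-1 motif TGANTCA, the kappaB motif (GGG, any 5 bases, then CC) and the STAT motif TTCNNNGAA. Tbx21 is shown at chr11:97115332-97115581 (minus strand), Eomes at chr9:118477939-118478188 (plus strand), Il12rb2 at chr6:67376189-67376438 (minus strand) and Lta at chr17:35205352-35205601 (minus strand).
Tbx21: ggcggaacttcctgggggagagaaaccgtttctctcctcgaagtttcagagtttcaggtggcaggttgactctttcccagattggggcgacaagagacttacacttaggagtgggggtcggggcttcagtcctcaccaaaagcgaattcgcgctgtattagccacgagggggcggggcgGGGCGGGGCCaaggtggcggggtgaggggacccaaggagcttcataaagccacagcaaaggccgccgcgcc
Eomes: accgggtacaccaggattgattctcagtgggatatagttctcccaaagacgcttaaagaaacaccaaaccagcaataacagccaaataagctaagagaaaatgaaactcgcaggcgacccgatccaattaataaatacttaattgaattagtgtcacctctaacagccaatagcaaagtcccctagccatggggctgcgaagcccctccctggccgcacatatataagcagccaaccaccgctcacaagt
Il12rb2: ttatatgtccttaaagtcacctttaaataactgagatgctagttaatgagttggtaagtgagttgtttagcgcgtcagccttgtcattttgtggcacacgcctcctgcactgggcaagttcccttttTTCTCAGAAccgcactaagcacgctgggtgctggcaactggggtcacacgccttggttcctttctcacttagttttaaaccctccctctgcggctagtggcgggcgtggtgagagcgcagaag
Lta: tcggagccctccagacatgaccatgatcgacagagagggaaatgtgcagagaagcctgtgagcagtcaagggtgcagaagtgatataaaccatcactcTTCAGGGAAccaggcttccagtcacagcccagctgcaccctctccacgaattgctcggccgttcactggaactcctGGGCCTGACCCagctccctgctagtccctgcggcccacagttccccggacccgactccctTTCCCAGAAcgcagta
The Tbx21 window held 1 match, to kappaB, and the Eomes window held no match to any of these letters. The Il12rb2 window held 1 STAT match, TTCTCAGAA, from 123 to 115 bases before the start. The Lta window held 2 STAT matches, TTCAGGGAA and TTCCCAGAA, and a kappaB match on each strand that overlapped each other. RefSeq promoters were matched for 9 of the 10 genes in 10 windows, with 2 windows for Runx3. Il12rb1 had no window. The STAT motif was found in 3 of the 10 windows (Ifng, Il12rb2 and Lta) and in 7.02% of the 32851 promoters of the same length, and the kappaB motif in 7 of the 10 windows and in 45.8% of all promoters. The RUNX motif was found in 2 windows (Cxcr3 and Runx3; 14.0% of all promoters) and the NFAT motif in 2 (Hlx and Tnf; 20.4%). The T-box half-site and the AP-1 motif matched in 0 of the 10 windows, against 3.33% and 6.75% of all promoters. These matches describe letters in a window and do not show binding.

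Library totals ran from 20074299 to 22755248 estimated reads in the itaconate group and from 21015690 to 24144999 in the NaCl group. Of the defining markers of the labelled cell type, Cd4 averaged 13508 ± 435 in itaconate and 9519 ± 853 in NaCl and Cd3e averaged 6032 ± 48.3 in itaconate and 4754 ± 439 in NaCl (normalized estimated counts, mean ± SD, n = 3 each). Of 7 T cell markers, 2 rose (Cd3e and Lck), 3 fell and 2 did not pass. For Cd3e and Lck the limma adjusted p was 0.00783 and 0.0164, and at most 0.0501 and 0.0661 over the alternatives. The fallen ones went the opposite way to Cd3e, with log2 fold changes of −0.44 for Cd3g, −0.60 for Cd247 and −0.36 for Thy1 (limma adjusted p = 0.00217, 0.000219 and 0.00951; 0.0627 at most over the alternatives for Thy1). Zbtb7b, a factor of the CD4+ lineage, was at −0.15 ± 0.083 (adjusted p = 0.184). Cells that also use Tbx21 and Eomes were looked for. The CD8+ T cell markers Cd8a and Cd8b1 summed to between 308 and 365 in itaconate and between 363 and 408 in NaCl, and neither passed the test. Of 7 NK or innate lymphoid cell markers, Ncr1, Klrb1c and Klra8 had at most 2.05 in any library and Klre1 was listed at 0 in all, while Gzma and Prf1, which activated T cells also make, fell (limma adjusted p = 0.00299 and 0.00585; 0.101 at most over the alternatives for Gzma). Summed, the NK list ran from 202 to 821 in itaconate and from 1408 to 1912 in NaCl. The gamma delta T cell list summed to between 30.1 and 61.7 in itaconate and between 37.7 and 54.2 in NaCl, and the 5 B cell markers to between 173 and 303 in itaconate and between 224 and 304 in NaCl. The 6 myeloid markers summed to between 154 and 198 in itaconate and between 56.1 and 90.5 in NaCl, with the 2 tested markers Itgam and Cd68 higher (adjusted p = 0.00524 and 0.0319; 0.143 at most over the alternatives for Cd68) and Lyz2, Csf1r, Adgre1 and Cd14 at 9.67 or less in every library. The 4 dendritic cell markers summed to between 134 and 152 in itaconate and between 86.2 and 117 in NaCl, with 1 of 2 tested markers, Zbtb46, higher (adjusted p = 0.0324; 0.126 at most over the alternatives). The 3 granulocyte markers were listed at 0 in every library. The part of these cells in the results was not tested. In bulk RNA, fewer cells of a kind and less RNA per cell cannot be told apart.

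Tbx21 lies at chr11:97098071-97115331 (GRCm38, minus strand). It had normalized estimated counts of 896, 879.7 and 1218 in the itaconate libraries (replicates 1 to 3), against 1694, 1560.1 and 1713 in the NaCl libraries. The groups did not overlap, and itaconate replicate 3 lay closest to the controls. Tbx21 fell by 0.74 ± 0.13 on the log2 scale (SE; limma adjusted p = 0.000687), to 60.3% of the NaCl mean.

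Eomes, at chr9:118478212-118486132 (plus strand), had 202, 236 and 204 normalized estimated counts in itaconate, against 127, 95.4 and 109.8 in NaCl. Every itaconate library lay above every NaCl library. It rose by 0.95 ± 0.19 on the log2 scale (limma adjusted p = 0.0024), with 199 to 220.0 estimated reads per itaconate library behind the values and 95 to 125 per NaCl library. An antisense gene, Gm33460, shares 118 exonic bases with Eomes and was listed at 0 in every library. The log2 ratio of Eomes over Tbx21 within a library was −2.14, −1.89 and −2.57 with itaconate and −3.72, −4.02 and −3.95 with NaCl, a shift of 1.69. The ratio did not overlap between the groups (exact permutation test, two-sided, p = 0.1, the smallest that 3 against 3 can give; adjusted p = 0.2 over 10 pairs). Eomes stayed well below Tbx21 in both groups when levels were taken per kilobase of exon: Eomes averaged 51.6 (48.6 to 56.9) and Tbx21 401 (354 to 490) in itaconate, and Eomes averaged 26.7 (23.0 to 30.7) and Tbx21 665 (627 to 688) in NaCl (normalized estimated counts per kilobase, lowest and highest of 3 libraries in brackets).

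Runx3, a Runt-domain factor that binds the Ifng locus with T-bet and silences Il4, lies at chr4:135120652-135177990 (plus strand). Its normalized estimated counts were 3852, 3085 and 3350.1 in itaconate, against 5420.4, 5188 and 4651 in NaCl. The groups did not overlap, and Runx3 fell by 0.57 ± 0.10 on the log2 scale (limma adjusted p = 0.000826). The log2 ratio of Runx3 over Tbx21 was 1.79 ± 0.32 in itaconate and 1.62 ± 0.16 in NaCl (SD, n = 3) and overlapped (exact permutation test, p = 0.4).

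Hlx encodes a homeobox factor that acts with T-bet on Ifng and lies at chr1:184727140-184732619 (minus strand). It was the lowest of the 10 per kilobase of exon in itaconate, with 8.42, 32.2 and 82.1 normalized estimated counts, against 71.4, 62.3 and 86.2 in NaCl. The itaconate libraries spread over a range wider than the NaCl group, replicate 3 lay within the NaCl values, and replicate 1 rested on 9 estimated reads. The log2 fold change of −1.31 ± 0.60 did not pass (limma adjusted p = 0.105), and its 95% interval ran from −2.61 to −0.02. Without itaconate replicate 3 it was −2.06 and passed (adjusted p = 0.00504), and without itaconate replicate 1 it was −0.49 (adjusted p = 0.379), which are the lowest and the highest adjusted p among the alternatives.

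**Figure D1:**
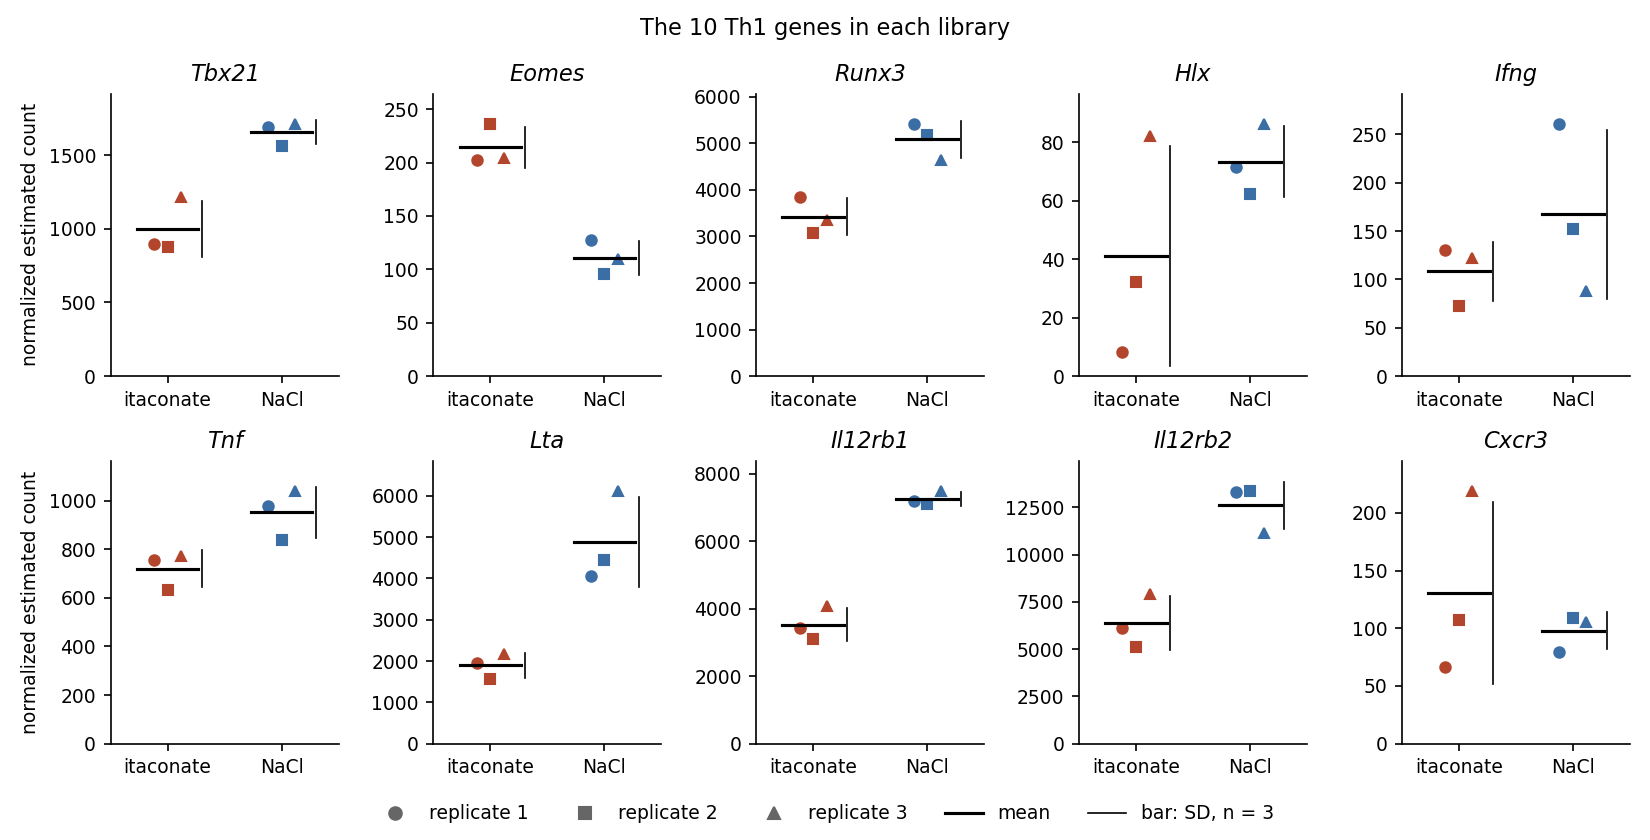
Normalized estimated count (vertical axis, linear from 0, a separate scale for each gene) of the 10 Th1 genes in the 3 itaconate libraries (left, red) and the 3 NaCl libraries (right, blue). Points are libraries, with the marker giving the replicate number, the horizontal line is the mean and the vertical bar the SD. Eomes is higher in every itaconate library, 6 genes are lower in every one, and Hlx, Ifng and Cxcr3 overlap.

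Ifng, the gene for interferon gamma, the defining Th1 cytokine, lies at chr10:118441046-118445892 (plus strand). Its normalized estimated counts were 130.0, 73.0 and 122 in itaconate, against 261, 153 and 88.0 in NaCl. The groups overlapped, and the NaCl libraries alone spanned 88.0 to 261. The log2 fold change was −0.53 ± 0.35 with a 95% interval from −1.29 to 0.23 (limma adjusted p = 0.262), an interval that spans both directions. Without NaCl replicate 1 it was −0.14 and without NaCl replicate 3 it was −0.92 (adjusted p = 0.782 and 0.0519). Levels were modest, from 68 to 256 estimated reads per library. A predicted gene on the same strand, Gm49751, shares 336 exonic bases with Ifng and had between 0 and 20.4, so some reads could have been divided between them.

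Tnf and Lta encode tumour necrosis factor and lymphotoxin alpha, neighbouring members of the TNF family that share receptors. Both lie on the minus strand of chromosome 17, Tnf at chr17:35199381-35202007 and Lta at chr17:35203165-35205351. Lta had 1949, 1575 and 2169.8 normalized estimated counts in itaconate, against 4070.1, 4438 and 6109 in NaCl. Every itaconate library lay far below every NaCl library, and Lta fell by 1.35 ± 0.15 on the log2 scale (limma adjusted p = 3.14e-05), to 39.0% of the NaCl mean, the largest change among the 7 of these genes that passed.

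Tnf changed less, with 754, 633 and 774 normalized estimated counts in itaconate, against 979, 837 and 1038 in NaCl. The groups did not overlap but came close, and Tnf fell by 0.40 ± 0.12 (limma adjusted p = 0.023). That call ended without itaconate replicate 2 (log2 fold change −0.31, adjusted p = 0.112), NaCl replicate 1 (−0.38, adjusted p = 0.0675) or NaCl replicate 3 (−0.34, adjusted p = 0.0981), and without the intensity trend of the variance (adjusted p = 0.0711), in a range of 0.0046 to 0.112. Within a library the log2 ratio of Tnf over Lta was −1.37, −1.31 and −1.49 with itaconate and −2.05, −2.41 and −2.56 with NaCl. It differed by 0.95 with no overlap (exact permutation p = 0.1, adjusted p = 0.2 over 10 pairs). The third gene of the cluster, Ltb, which encodes the membrane anchor of the lymphotoxin heterotrimer, had 2791, 3389 and 3798 in itaconate, against 4829.9, 5128 and 6316 in NaCl, and fell by 0.71 ± 0.12 (adjusted p = 0.000876). Nfkbil1, on the other side of Lta and named after its values were seen, was at 0.09 ± 0.099 (adjusted p = 0.527).

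Both chains of the IL-12 receptor fell, to 48.6% and 50.7% of their NaCl means. Il12rb1, the chain shared with the IL-23 receptor, lies at chr8:70808449-70821424 (plus strand) and had 3418, 3101 and 4068 normalized estimated counts in itaconate, against 7186, 7094 and 7483 in NaCl. The gap between the groups was wider than the spread in either. Il12rb1 fell by 1.05 ± 0.10 on the log2 scale and had the smallest p of the 10 genes (limma adjusted p = 1.14e-05).

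Il12rb2, the chain that recruits STAT4 and whose presence makes helper cells responsive to IL-12, lies at chr6:67291318-67376188 (minus strand). Its normalized estimated counts were 6130.1, 5095 and 7944 in itaconate, against 13305, 13358 and 11162 in NaCl. The groups did not overlap, and Il12rb2 fell by 1.00 ± 0.14 (limma adjusted p = 0.000146). The log2 ratio of Il12rb2 over Il12rb1 was 0.84 ± 0.12 in itaconate and 0.79 ± 0.19 in NaCl (SD, n = 3), a difference of 0.05 that lay within the replicate spread (exact permutation p = 0.7). Serbp1, on the opposite strand, shares 1519 exonic bases with Il12rb2 in the annotation, and the strand setting of the counting is not given, so reads there could have been divided between them. Serbp1 itself averaged 16683 ± 1635 in itaconate and 17429 ± 1177 in NaCl and did not pass (log2 fold change −0.07 ± 0.093, adjusted p = 0.62).

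Cxcr3, the receptor that guides Th1 cells to the interferon-induced chemokines, lies at chrX:101731535-101734269 (minus strand). It had 66.4, 107 and 219 normalized estimated counts in itaconate, against 79.5, 108 and 105 in NaCl. A single library, itaconate replicate 3, lay above all others, and the remaining 5 overlapped. The log2 fold change was 0.26 ± 0.36 with a 95% interval from −0.51 to 1.03 (limma adjusted p = 0.608), and it turned to −0.20 without itaconate replicate 3 (adjusted p = 0.636). In all 3 itaconate libraries the log2 ratio of Cxcr3 over Tbx21 was higher than in NaCl. It was −3.73, −3.02 and −2.47 with itaconate and −4.40, −3.83 and −4.01 with NaCl (exact permutation p = 0.1, adjusted p = 0.2 over 10 pairs). Of the 10 pairs, 5 did not overlap, while 48.4% of single tested genes did not. Hlx over Tbx21, Ifng over Tbx21 and Ifng over Tnf overlapped. They differed by −0.57, 0.22 and −0.13 (exact permutation p = 0.7, 0.8 and 0.8).

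**Figure D2:**
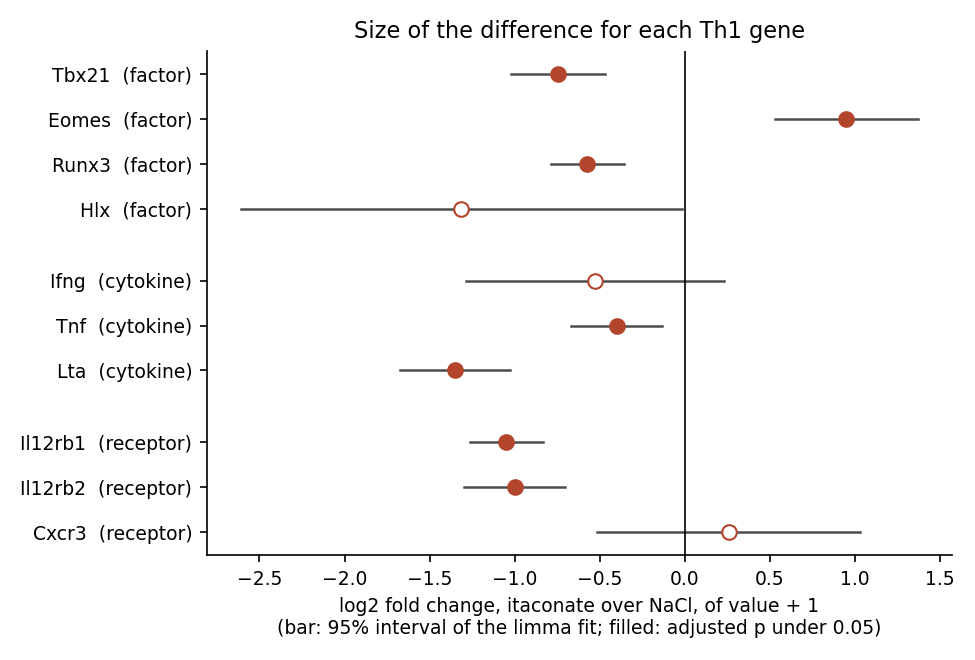
Log2 fold change of itaconate over NaCl on the scale of value + 1 (horizontal axis) for the 10 genes, ordered by role. Bars are the 95% intervals of the limma fit, and filled points passed at an adjusted p under 0.05. Among the genes that passed, Lta, Il12rb1 and Il12rb2 lie lowest and Eomes at 0.95, and the intervals of Ifng and Cxcr3 cross 0.

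Per kilobase of exon, Il12rb2 and Lta led the 10 genes in both groups. In itaconate Il12rb2 averaged 1684 and Lta 1372 normalized estimated counts per kilobase, and their ranges overlapped. In NaCl Lta averaged 3523 and Il12rb2 3323 per kilobase, again with overlapping ranges. Il12rb1, Runx3, Tbx21 and Tnf followed in both groups, with Tnf above Tbx21 in itaconate and Tbx21 above Tnf in NaCl. The ranges of Tnf and Tbx21 overlapped in both groups, and those of Il12rb1 and Runx3 overlapped in itaconate. Ifng came seventh and Cxcr3 eighth, at 83.7 and 75.6 per kilobase in itaconate with overlapping ranges, and at 129 and 56.5 in NaCl without overlap. In itaconate the range of Cxcr3 also covered that of Eomes. The lowest Ifng value there (56.4) lay just under the highest Eomes value (56.87). Eomes was above Hlx in itaconate (51.6 and 18.0 per kilobase, no overlap), and the pair overlapped in NaCl (26.7 and 32.2 per kilobase).

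The itaconate libraries were not equally far from the controls. Itaconate replicate 3 had the highest value of its group for 5 of the 6 fallen genes, and replicate 2 had the lowest for all 6. Among all genes that fell, replicate 3 was highest of its group for 59.9% and replicate 2 lowest for 35.2%. The median of the 10 genes relative to the NaCl mean was −0.71, −0.98 and −0.38 on the log2 scale in itaconate replicates 1, 2 and 3, and between −0.06 and 0.05 in the NaCl libraries. Without itaconate replicate 3, 7 of the 10 genes fell, the additional one being Hlx.

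**Figure D3:**
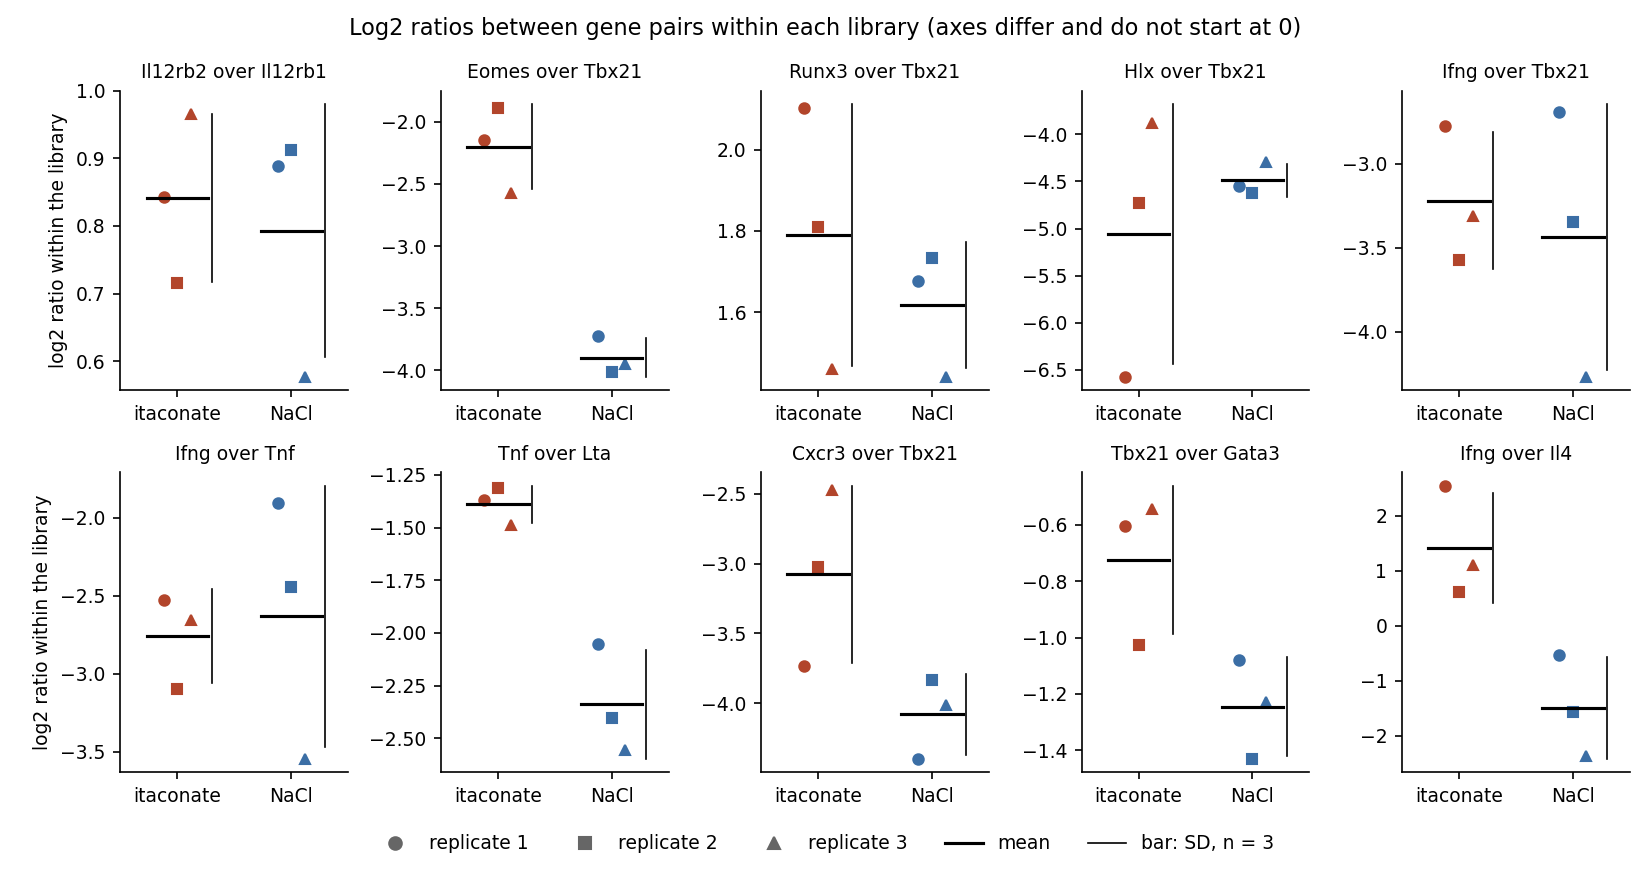
Log2 ratio between 2 genes within each library (vertical axis, a separate scale for each pair, not starting at 0), itaconate left in red and NaCl right in blue. Points are libraries, lines are means and bars SD (n = 3). Eomes over Tbx21, Tnf over Lta, Cxcr3 over Tbx21, Tbx21 over Gata3 and Ifng over Il4 are higher in every itaconate library. Il12rb2 over Il12rb1, Runx3 over Tbx21, Hlx over Tbx21, Ifng over Tbx21 and Ifng over Tnf overlap.

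Genes around the Th1 programme were read from 7 lists. Together they held 86 distinct tested genes, of which 34 fell, 14 rose and 38 did not pass, so 55.8% passed against 36.0% of all tested genes. By list the share ran from 41.7% (TNF and lymphotoxin system) and 45.5% (interferon gamma signalling) to 72.7% (regulators of other helper lineages and T-bet antagonists). The lists were chosen with earlier results of these data known, so the comparison with all tested genes cannot test for an excess.

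Genes of IL-12, IL-18 and IL-27 receptor signalling, a list that includes chains of receptors other than that of IL-12, moved both ways. Of these 14 genes, 5 fell and 3 rose (median log2 fold change −0.19). The kinase gene Jak2 fell by 0.64 ± 0.10 (limma adjusted p = 0.000424), with 8138, 9418 and 10106 normalized estimated counts in itaconate, against 15719.6, 14554 and 12905 in NaCl. Tyk2, the other kinase of the receptor, was at −0.07 ± 0.094 (adjusted p = 0.619). Stat4, the transcription factor that IL-12 activates, rose by 0.54 ± 0.14 (adjusted p = 0.0103), with 2216, 2294 and 1830.0 in itaconate, against 1678, 1587 and 1129 in NaCl. That call ended without itaconate replicate 2 (adjusted p = 0.0553) and without the intensity trend (0.0795), in a range of 0.000353 to 0.0795. Il18r1, the ligand-binding chain of the IL-18 receptor, rose by 1.91 ± 0.27 (adjusted p = 0.000182), with 130.0, 139 and 177 in itaconate, against 30.6, 40.2 and 46.3 in NaCl. Its partner chain Il18rap was higher in every itaconate library but did not pass (1.08 ± 0.48, adjusted p = 0.0971, range 0.0246 to 0.237). Gadd45b, which IL-12 and IL-18 induce to keep p38 signalling active, fell by 1.78 ± 0.22 (adjusted p = 6.67e-05), and Stat3 fell by 0.67 ± 0.086 (adjusted p = 9.45e-05). Irak1, a kinase gene of IL-18 signalling, was lower in every itaconate library without passing (−0.21 ± 0.085, adjusted p = 0.0681, range 0.0375 to 0.176; it passed without itaconate replicate 3, at 0.0489).

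Of 11 genes of the interferon gamma receptor and its signalling, 3 rose and 2 fell (median log2 fold change 0.07). The fallen genes were 1 without itaconate replicate 2 and 4 without itaconate replicate 3. Ifngr1, the ligand-binding chain, rose by 0.56 ± 0.13 (limma adjusted p = 0.006; 0.0621 without the intensity trend), with 2448, 3239 and 3732 normalized estimated counts in itaconate, against 1960.1, 2274 and 2081 in NaCl. Pias1, an inhibitor of STAT signalling, rose by 0.40 ± 0.096 (adjusted p = 0.00585). Socs1, a feedback inhibitor that interferon gamma induces, fell by 0.60 ± 0.16 (adjusted p = 0.0107), a call that ended without itaconate replicate 2 (0.0560), NaCl replicate 3 (0.0524) or the intensity trend (0.0921). Socs1 had 2265, 2551 and 3863 in itaconate, against 3952, 4145 and 4708 in NaCl, so itaconate replicate 3 lay just under the controls. The phosphatase gene Ptpn2 was at −0.74 ± 0.27 (adjusted p = 0.0503, range 5.71e-05 to 0.253). It passed in 8 alternatives, among them both rescalings by factors, quantile normalization and a pseudocount of 10 (0.0403 to 0.0497), as well as without itaconate replicate 1 (0.0284) or NaCl replicate 3 (0.00244). The receptor kinase gene Jak1 was at 0.23 ± 0.088 (adjusted p = 0.0631, range 0.0158 to 0.201) and passed without NaCl replicate 2 (0.0346).

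Among 17 tested target genes of interferon gamma, 7 fell and 1, Nlrc5, rose (median log2 fold change −0.42). The spread within the itaconate group was wide here: replicate 3 was highest and replicate 1 lowest of the group for 15 of the 17 genes each, and the median relative to the NaCl mean was −0.78, −0.45 and −0.03 in replicates 1, 2 and 3. The fallen genes were 11 without itaconate replicate 3, 4 without itaconate replicate 2 and 4 without NaCl replicate 2, and Nlrc5 did not pass without itaconate replicate 2. Gbp2, a guanylate-binding protein gene, shows the pattern, with 4581, 5915 and 8948 in itaconate, against 8428, 7962 and 7834 in NaCl (log2 fold change −0.37 ± 0.18, limma adjusted p = 0.118). Without itaconate replicate 3 Gbp2 was at −0.63 and passed (adjusted p = 0.000562). The related gene Gbp5 had 1815, 2449 and 4394 in itaconate, against 3755, 3988 and 4126 in NaCl (−0.55 ± 0.23, adjusted p = 0.0737), and without itaconate replicate 3 it was at −0.91 (adjusted p = 7.68e-05). In both Gbp genes itaconate replicate 3 was the highest of the 6 libraries. The immunity-related GTPase gene Irgm1 fell by 0.77 ± 0.16 (adjusted p = 0.00208), Cd274, which encodes PD-L1, by 0.75 ± 0.12 (adjusted p = 0.000452) and the adhesion molecule gene Icam1 by 0.68 ± 0.11 (adjusted p = 0.000461).

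**Figure D4:**
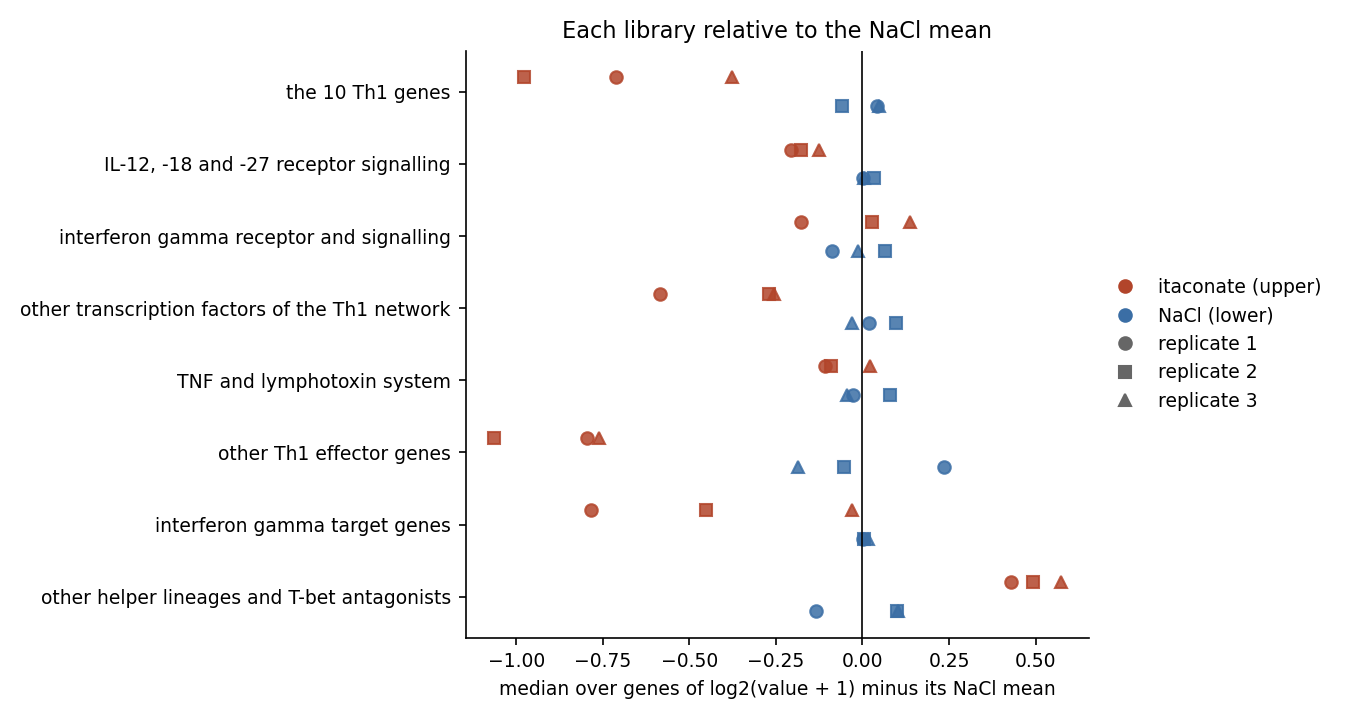
Median over the genes of each list of log2(value + 1) minus the NaCl mean of the same gene (horizontal axis), by library, itaconate above in red and NaCl below in blue, with the marker giving the replicate number. For interferon gamma targets the itaconate libraries lie at −0.78, −0.45 and −0.03, and for the 10 Th1 genes at −0.71, −0.98 and −0.38.

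Of 14 other transcription factor genes of the Th1 network, 8 fell and 1 rose (median log2 fold change −0.32). The risen gene, Stat4, did not pass without itaconate replicate 2, and 2 genes rose without itaconate replicate 3 or NaCl replicate 1. Prdm1, which encodes the effector regulator BLIMP-1, fell by 2.20 ± 0.23 (limma adjusted p = 2.03e-05), with 77.6, 139 and 145 normalized estimated counts in itaconate, against 464, 599.7 and 556 in NaCl. Id2, an inhibitor of E proteins in effector T cells, fell by 1.25 ± 0.16 (adjusted p = 8.01e-05). Bhlhe40, a factor that favours interferon gamma over IL-10, fell by 0.96 ± 0.11 (adjusted p = 3.14e-05), and Nfkb1, an NF-kB subunit gene, by 0.75 ± 0.087 (adjusted p = 4.46e-05). Rel, another NF-kB subunit gene, was at 0.48 ± 0.19 (adjusted p = 0.0692, range 0.00027 to 0.284) and passed without itaconate replicate 3 (0.00505) or NaCl replicate 1 (0.0319). Irf1, a factor that interferon gamma induces, was at −0.29 ± 0.14 (adjusted p = 0.122) and passed without itaconate replicate 3 (−0.46, adjusted p = 0.00681).

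Of 14 other Th1 effector genes, 7 fell and 1, Tnfsf11, rose (median log2 fold change −0.80). Ccl4, the gene of an inflammatory chemokine, fell by 1.22 ± 0.22 (limma adjusted p = 0.00103), and Ccl5, the gene of another, fell by 2.19 ± 0.26 (adjusted p = 5.95e-05). Ccl5 had 51.4, 51.6 and 55.4 normalized estimated counts in itaconate, against 365, 215 and 185 in NaCl. The inflammatory receptor gene Ccr2 fell by 2.43 ± 0.31 (adjusted p = 9.07e-05), and the GM-CSF gene Csf2 fell by 2.74 ± 0.39 (adjusted p = 0.000211). Il10, an inhibitory cytokine gene that effector helper cells also use, fell by 3.23 ± 0.43 (adjusted p = 0.000129), with 7.48, 23.6 and 30.8 in itaconate, against 149.9, 207 and 172 in NaCl. Il2 was lower in every itaconate library but did not pass (−0.98 ± 0.40, adjusted p = 0.0722, range 0.0219 to 0.286). Ccl3, a further chemokine gene, was also lower in every itaconate library without passing (−0.54 ± 0.32, adjusted p = 0.211).

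Of 12 tested genes of the TNF and lymphotoxin system, 4 fell and 1 rose (median log2 fold change −0.06). Ltb is described above with its neighbours. The gene that rose was Tnfrsf1b, the type 2 TNF receptor of T cells, at 0.79 ± 0.10 (limma adjusted p = 8.55e-05), with 2826, 2722 and 2328 normalized estimated counts in itaconate, against 1405, 1584 and 1540.4 in NaCl. Tnfrsf1a, the type 1 receptor gene, was at 0.23 ± 0.11 (adjusted p = 0.118). Tnfsf14, which encodes the ligand LIGHT, was at 0.27 ± 0.13 (adjusted p = 0.123). Tnfaip3, which encodes the NF-kB inhibitor A20, fell by 0.93 ± 0.088 (adjusted p = 1.09e-05), and the receptor adaptor gene Traf1 fell by 0.88 ± 0.11 (adjusted p = 5.92e-05).

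**Figure D5:**
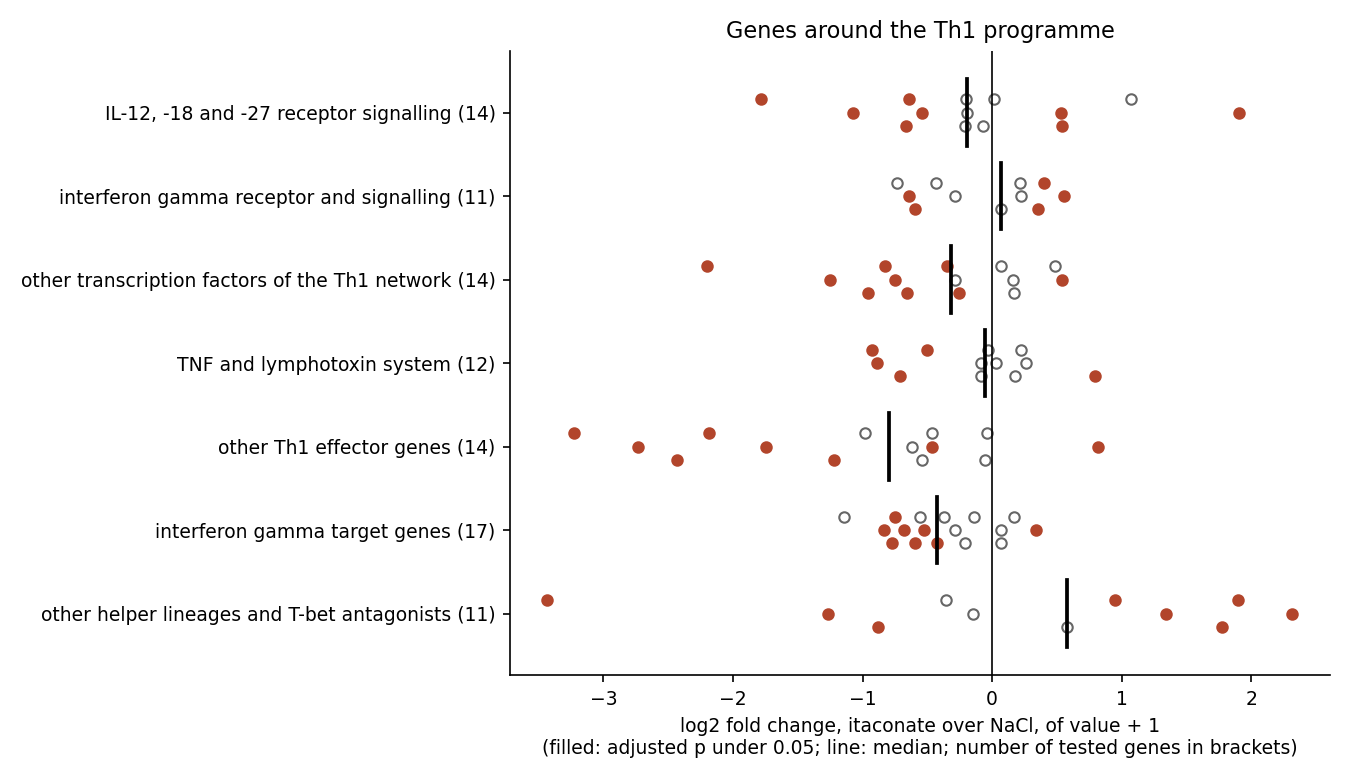
Log2 fold change of itaconate over NaCl on the scale of value + 1 (horizontal axis) for each tested gene of the 7 lists. Filled points passed at an adjusted p under 0.05, open points did not, and the black line is the median of the list, from −0.80 for other Th1 effector genes to 0.58 for regulators of other helper lineages and T-bet antagonists.

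Regulators of the other helper lineages and antagonists of T-bet moved both ways. Of 11 such genes, 5 rose and 3 fell (median log2 fold change 0.58). Gata3, the Th2 regulator, had 1362, 1792 and 1776 normalized estimated counts in itaconate, against 3579, 4205 and 4016 in NaCl, and fell by 1.27 ± 0.12 (limma adjusted p = 8.43e-06). The log2 ratio of Tbx21 over Gata3 was −0.60, −1.03 and −0.54 with itaconate and −1.08, −1.43 and −1.23 with NaCl (exact permutation p = 0.1, adjusted p = 0.2 over 10 pairs). The log2 ratio of Ifng over Il4 was 2.54, 0.62 and 1.10 with itaconate and −0.52, −1.56 and −2.37 with NaCl (exact permutation p = 0.1, adjusted p = 0.2), with Il4 at 41.7 ± 18.1 in itaconate and 429 ± 46.8 in NaCl. Of the genes that rose, Bcl6, the follicular helper regulator gene, was at 1.90 ± 0.32 (adjusted p = 0.000594), Tcf7, which encodes TCF-1, at 1.78 ± 0.087 (adjusted p = 1.97e-07), and Zfpm1, which encodes the GATA cofactor FOG-1, at 1.34 ± 0.11 (adjusted p = 3.33e-06). Sox4, a factor that opposes GATA3, was higher in every itaconate library without passing (0.58 ± 0.24, adjusted p = 0.0786, range 0.0401 to 0.270). It passed with quantile normalization (0.68, adjusted p = 0.0401). Maf, a factor of Il4 and Il10, was at −0.36 ± 0.20 (adjusted p = 0.184) and passed without NaCl replicate 1 (adjusted p = 0.016).

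The 4 genes whose values ran most like those of Tbx21 over the 6 libraries were Gatad1, Junb, Tmem175 and Fkbp1a (Pearson r of log2 values from 0.998 to 0.999 among 9565 genes with a mean of at least 100). Those most like Ifng were Tmem104, Parg, Wdr59, Ube2f and Dph5 (r from 0.946 to 0.991). The points share the libraries and the treatment contrast, so these values are a description.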

How the data were processed

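RNA of 6 libraries was compared, 3 with itaconate and 3 with NaCl, with groups and replicate numbers from the sample titles. The authors deposited an expression signal per gene symbol, normalized estimated counts that are not whole. STAR 2.7.0f, RSEM 1.3.0 and mm10 are named, per the submitters' processing notes. Of the annotation, the strand setting and the scaling tool, no source used here gives a name.

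In each library 1 fixed size factor turned the values into estimated reads with at most 2 decimals. Of these, 79.9% to 82.1% per library were whole (tolerance 0.02). A log-scale model was used because the deposited values are normalized estimated counts, and no count model was tried. The 13180 of 55401 entries with a mean of at least 10 were put on the scale log2(value + 1). An intensity-trend fit by limma 3.58.1 (R 4.3.3) gave two-sided p-values, called at a Benjamini-Hochberg adjusted p under 0.05. A fold change on this scale understates the change of low genes. Of 107 symbols on several entries the highest kept the symbol. Replicates of a group differed by more than sampling noise (chi-square per degree of freedom 12.8 to 25.7). The fit was also run on simulated data, but no outcome is given here, so that run does not vouch for the calls.

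The 10 genes and the 7 lists were chosen with earlier results of these data known. From each list the text names first up to 4 genes with the smallest p that passed and then up to 2 that did not, with further members where the pathway needs them. Some genes that this rule names are not reported here. Positions and exon lengths are from GENCODE M21 (GRCm38). Within-library ratios were tested with scipy 1.17.1. Alternatives were other pseudocounts, filters, scalings and variance settings, a replicate block and each library left out.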

Additional observations from a re-analysis of the deposited data

How the results depend on the processing

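Of 159 recomputed values of the 10 genes, 152 kept their direction and their side of the threshold; 4 lost the call, 2 gained it and 1 turned. For 46 other genes of the lists, 692 of 730 recomputed values kept both. The turned value was Cxcr3 at −0.20 without itaconate replicate 3 (range 0.66 to −0.20 with 1 library left out). Leaving out 1 library moved Hlx between −2.06 and −0.49 and Tnf between −0.49 and −0.31. Hlx passed without itaconate replicate 3, and Tnf lost its call without itaconate replicate 2, NaCl replicate 1 or NaCl replicate 3. Hlx had no value at a mean of at least 100. Between 5 and 7 of the 10 genes fell and 1 rose in each alternative.

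Without the intensity trend, Tnf at −0.40 did not pass (adjusted p = 0.0711). In that setting 1 gene of interferon gamma signalling rose and 1 fell, 0 other Th1 transcription factor genes rose and 5 fell, and 0 interferon gamma targets rose and 3 fell. Without the filter on low values, or with quantile normalization, 2 interferon gamma targets rose. With 1 library left out, 1 to 4 genes of interferon gamma signalling fell, 0 to 2 other transcription factor genes rose, 0 to 1 interferon gamma targets rose and 4 to 11 fell. The cause was not tested. Fewer samples enter when a library is left out.

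Same-numbered libraries of the groups are not stated to be paired. Their deviations from the group means correlated at 0.146, 0.0384 and 0.128 for numbers 1 to 3, and each library correlated best with its own number. With replicate number as a block, Hlx at −1.31 passed (adjusted p = 0.0441), as did Ptpn2, Rel, Maf, Gbp5, Il2, Jak1, Irak1 and Irf1 (adjusted p from 5.71e-05 to 0.0388), 7 of the 10 genes fell, 5 genes of interferon gamma signalling fell and 2 other transcription factor genes rose, and 2855 genes rose and 2781 fell among all tested, against 2400 and 2341 without it. Hlx, Eomes, Ifng and Cxcr3 rested on at most 256 estimated reads in a library, which limits their precision.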
